A study of Mus musculus with 2 samples.

Results

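Lysosomes are acidic organelles in which hydrolases break down proteins, lipids and sugars, and autophagy is the route by which a double membrane, the autophagosome, wraps cytoplasm and delivers it to them. A proton pump, the V-ATPase, acidifies the lumen, and lysosomal membrane proteins such as LAMP1 line and protect the boundary. The transcription factors TFEB, TFE3 and MITF bind a short palindromic element, called CLEAR, in the promoters of many lysosomal genes, and the kinase complex mTORC1 on the lysosome's surface holds these factors in the cytoplasm when nutrients are plentiful.

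The lysosome and autophagy genes described here are 37 genes of the deposited table, taken by gene name out of 54532 genes in all. They comprise 3 transcription factors, 12 hydrolases and other luminal proteins, 5 membrane proteins, 4 proton pump genes and 13 genes of autophagosome formation. All 37 were found, all are protein-coding, and all 37 reached 1 FPKM (a read level per kilobase of gene and per common depth) in at least 1 library. They were carried by 186 to 61729 reads per gene and library.

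RNA was sequenced from CT26, a mouse colon carcinoma line, in cells in which lentivirus forced the expression of 2 pluripotency factors, mouse Oct4 with human SOX2, and in control cells that received lentivirus with an empty vector and carry the genotype label wild type. Both were grown for 4 days in RPMI 1640 with 10% serum. The sources used here do not say whether the cells were a pool or a clone, or which promoter drove the factors. Each group holds 1 library, so no test across samples was possible, and every difference below compares these 2 libraries and not the conditions.

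Reads assigned to genes numbered 32262408 in the control library and 31521115 in the library with the factors. Pou5f1, the gene for Oct4, had 0 reads without the factors and 12406 with them, and mouse Sox2, to which human SOX2 reads may also map, had 929 and 1525. Epithelial markers, which the colon carcinoma label implies, were mostly below 1 FPKM. Of 8, 2 reached it, Krt18 and Krt20, of which 1 was higher with the factors and 1 lower. Cdh1 had 0 reads in both libraries and Epcam 1 and 2. The list summed to 30.8 FPKM without and 39.8 FPKM with the factors, with highest levels of 15.2 and 28.3 FPKM. All 10 mesenchymal markers were measured, with Vim, the vimentin gene, at 599 FPKM without and 966 FPKM with the factors and Fn1, the fibronectin gene, at 267 and 342 FPKM. Their directions were mixed, with 5 of the 10 below the control and 5 above. Macrophages are rich in lysosomes, and their defining markers were at or near 0: Adgre1, Marco, C1qa, C1qb and C1qc had 0 reads in both libraries and Ptprc had 2 in each. Of 18 macrophage and leukocyte markers 3 were measured, Cd14, Cd68 and Cd74, and all 3 were lower with the factors. The highest levels on the list were 20.7 FPKM without and 16.2 FPKM with the factors, and Cd68 stood at 5.53 and 4.27 FPKM. The list summed to 30.9 FPKM without and 23.4 FPKM with the factors, 9 and 7 of its genes having 0 reads. In bulk RNA fewer cells of a type and less RNA per cell cannot be told apart.

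The element that TFEB and its relatives bind was looked for in RefSeq promoters (build GRCm38.p6, 250 bases before to 50 after each annotated start), of which 37 belonged to 30 of the members. TCACGTGA, the palindrome at the core of the CLEAR element, lay in a promoter of 7 of these 30 members, against 1.12% of the 27025 genes with one. Counted by promoter, it lay in 18.9% of the 37 and in 0.974% of all 32851. The shorter E-box core CACGTG, which TCACGTGA contains, lay in 12 of the 30 members, against 8.09% of the 27025 genes, and in 32.4% of the 37 promoters, against 7.15% of all. Both motifs read the same on either strand. A match describes the letters in this window and is not evidence of binding.

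The 4 members with TCACGTGA that were most abundant in the control library are shown. They come from the pump and the lumen, and their RNA differed between the libraries by unlike amounts. Lamp1, chosen after its matches were seen, is added for its 4 E-box cores. Each runs 5′ to 3′ on the gene's strand and ends just before the annotated start or, for Atp6v0d1 and Ctsa, at the end of the last match, 4 and 12 bases into the transcribed part. Capitals mark CACGTG with, where present, its flanking T and A.
Ctsd (chr7:142387828-142387936, minus strand): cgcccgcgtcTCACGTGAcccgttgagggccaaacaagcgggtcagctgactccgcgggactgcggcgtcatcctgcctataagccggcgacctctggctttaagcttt
Atp6v0d1 (chr8:105566061-105566164, minus strand): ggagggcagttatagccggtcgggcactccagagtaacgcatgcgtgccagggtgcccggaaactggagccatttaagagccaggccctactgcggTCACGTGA
Atp6v1a (chr16:44139260-44139401, minus strand): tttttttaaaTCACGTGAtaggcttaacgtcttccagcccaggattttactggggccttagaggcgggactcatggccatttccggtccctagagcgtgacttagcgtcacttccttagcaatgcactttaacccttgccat
Ctsa (chr2:164833673-164833784, plus strand): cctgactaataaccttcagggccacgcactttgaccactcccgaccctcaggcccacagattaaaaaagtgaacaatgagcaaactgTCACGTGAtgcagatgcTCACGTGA
Lamp1 (chr8:13159061-13159160, plus strand): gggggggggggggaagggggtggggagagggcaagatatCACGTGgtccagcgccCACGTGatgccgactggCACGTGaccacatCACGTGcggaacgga

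Most lysosome and autophagy genes were slightly lower with Oct4 and SOX2, and none differed by 2-fold. The difference was measured on a log2 scale, as the level with the factors plus 1 FPKM over the control level plus 1 FPKM, a scale on which the added 1 understates the differences of low genes. Of the 37 members 30 had a ratio below 0, where 51.7% of the 12401 measured genes did. The median of the 37 was -0.17, against -0.01 over all measured genes, whose ratios had an SD of 0.47. No member was 2-fold lower or 2-fold higher, limits passed by 1.85% and 2.42% of measured genes. At a smaller limit, where the higher level stood at least 25% above the lower on the same scale, 9 members, or 24.3%, were lower with the factors and 0 were higher, beside 16.9% and 16.1% of measured genes. With 5 FPKM added in place of 1, the 9 and 0 became 5 and 0, beside 8.53% and 7.88% of measured genes. The 9 were Ctsl, Neu1, Ctsb and Hexa of the lumen, Npc1 and Cd63 of the membrane, Atp6v1a of the pump, and Map1lc3b and Atg12 of the autophagosome.

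Values given as a pair are FPKM in the control library and then in the library with the factors. Each fold divides the plain levels, and its exact 95% interval in brackets comes from the reads recovered from the table. These intervals cover counting error only and not the variation between cultures, which was not measured. For 6 members, Gla, Glb1, Atg16l1, Atg3, Atg7 and Map1lc3a, the interval held equal levels, so a difference was not detectable at this depth.

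**Figure D1:**
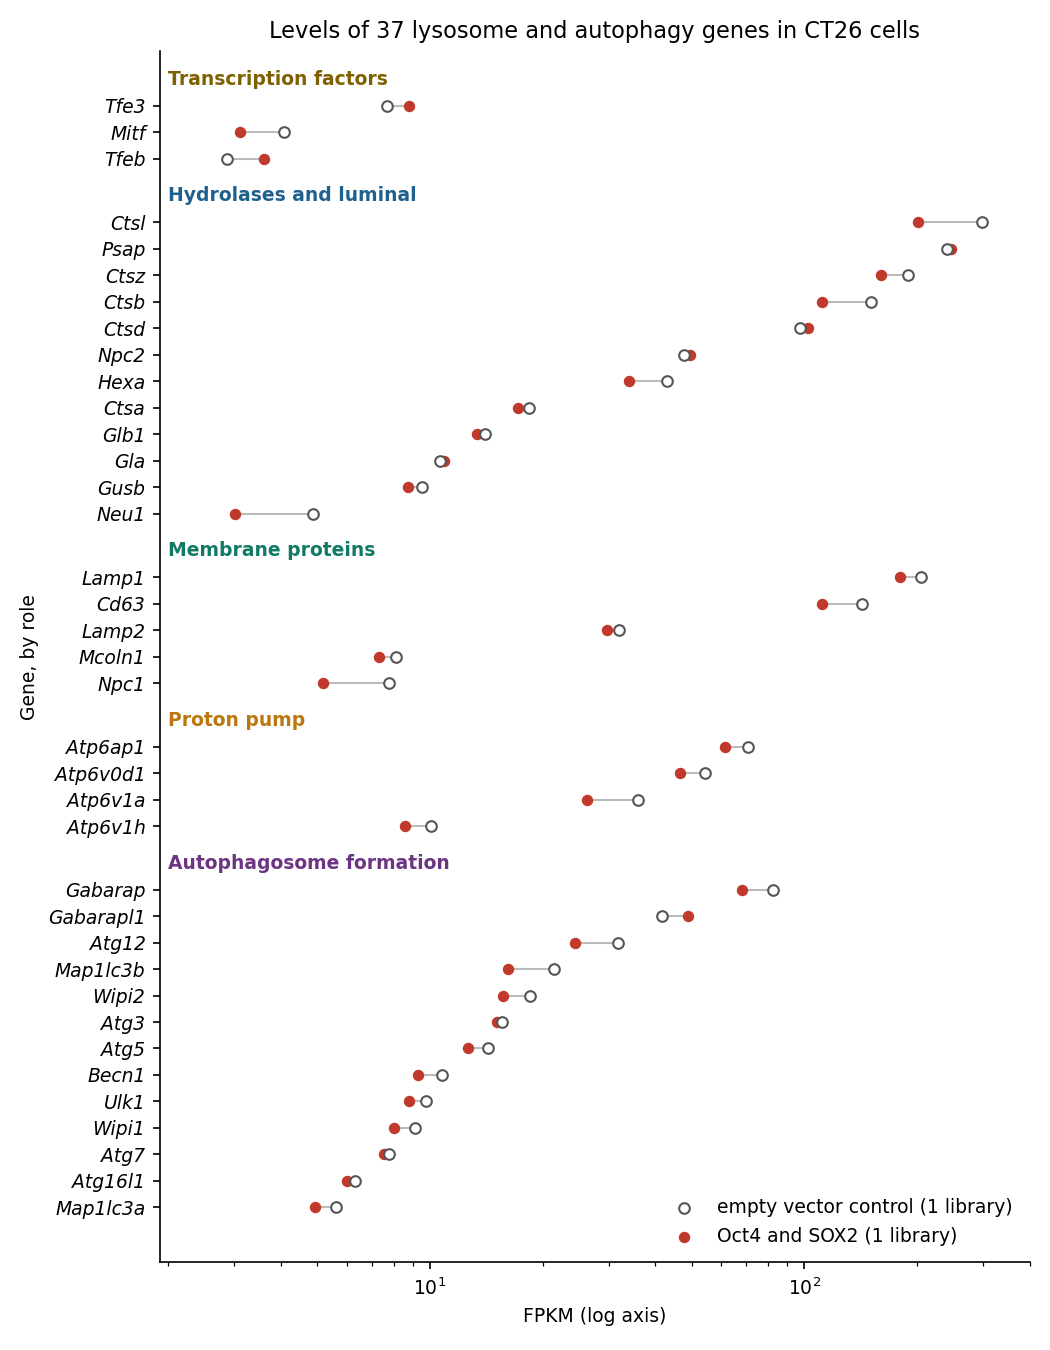
FPKM on a log axis of the 37 genes by role, with an open circle for the empty vector control library and a filled one for the Oct4 and SOX2 library (1 library each). The filled circle lies to the left of the open one for 30 of the 37 genes, and the gap is small against the spread of levels between genes, from 2.87 FPKM for Tfeb to 298 FPKM for Ctsl in the control.

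The transcription factors were the least abundant group and did not share a direction. Tfeb, the main regulator of lysosome formation, stood at 2.87 and 3.61 FPKM, 1.26-fold higher (1.12 to 1.41). Tfe3, its close relative, stood at 7.69 and 8.77 FPKM, 1.14-fold higher (1.08 to 1.21). Mitf, the family member known for driving melanocyte development, stood at 4.07 and 3.11 FPKM, 1.31-fold lower (1.18 to 1.46). Of 5 melanocyte markers 0 were measured, and they summed to 0.543 and 0.722 FPKM. The summed level of the 3 was 14.6 and 15.5 FPKM, and without Tfe3, the most abundant, it was 6.94 and 6.72 FPKM. Activity of these factors depends on where in the cell they are, which RNA levels do not show. None of the 3 has either motif in its listed promoters.

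Among the hydrolases and other luminal proteins, several cathepsins and sugar-cleaving enzymes were lower while another abundant set was level or slightly higher. Of the 12 genes 8 had a ratio below 0, 4 passed the 25% limit downward and none upward, with a median log2 ratio of -0.10. Ctsl, encoding the cysteine protease cathepsin L, was the most abundant member in the control and the furthest below it on the log2 scale. It stood at 298 and 201 FPKM, 1.48-fold lower (1.464 to 1.501), and 6.72% of measured genes had a ratio as low or lower. Ctsl (ENSMUSG00000021477) lies on chromosome 13 from 64359337 to 64370890 in GRCm38, and its principal transcript has 9 exons with 1002 coding bases.

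The other cysteine cathepsins were lower too, by different amounts. Ctsb, encoding cathepsin B, stood at 150 and 112 FPKM, 1.35-fold lower (1.32 to 1.37). Ctsz, encoding the carboxypeptidase cathepsin Z, stood at 189 and 160 FPKM, 1.18-fold lower (1.15 to 1.22). The aspartic protease gene Ctsd, for cathepsin D, went the other way, at 97.6 and 103 FPKM, 1.05-fold higher (1.02 to 1.09). The FPKM of Ctsl was therefore 3.05 times that of Ctsd in the control library and 1.96 times in the Oct4 and SOX2 library. The serine carboxypeptidase gene Ctsa, for cathepsin A, which also protects neuraminidase and beta-galactosidase, stood at 18.3 and 17.2 FPKM, 1.07-fold lower (1.01 to 1.13).

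Of the genes whose enzymes remove sugars, Neu1 and Hexa differed most. Neu1, the lysosomal sialidase gene, stood at 4.88 and 3.02 FPKM, 1.62-fold lower (1.42 to 1.85), the largest plain fold among the 37 but from only 582 and 359 reads. Hexa, encoding the alpha subunit of beta-hexosaminidase, stood at 43.1 and 34.1 FPKM, 1.26-fold lower (1.19 to 1.34). Gusb, the beta-glucuronidase gene, stood at 9.55 and 8.74 FPKM, 1.09-fold lower (1.01 to 1.18). Glb1, encoding the beta-galactosidase used as a senescence stain, stood at 14.1 and 13.3 FPKM, and Gla, encoding alpha-galactosidase A, at 10.6 and 10.9 FPKM. Neither of these differed beyond counting error.

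The luminal lipid-handling genes were nearly level. Psap, whose product is cut into the saposins that present lipids to hydrolases, stood at 241 and 246 FPKM, 1.02-fold higher (1.004 to 1.043). Npc2, encoding the soluble cholesterol carrier, stood at 47.6 and 49.4 FPKM, 1.04-fold higher (1.01 to 1.07). With these, Ctsd and Gla made up the 4 luminal genes above 0, none by more than 0.07 on the log2 scale.

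Summed over the 12 luminal genes, the level was 1124 and 958 FPKM, 1.17 times as high in the control. Ctsl held 26.5% of the control sum and 20.995% of the other, and its difference of 97.0 FPKM was 58.4% of the group's difference. Without Ctsl the sums were 826 and 757 FPKM, 1.09 times as high in the control. Psap became the most abundant luminal gene with Oct4 and SOX2, at 25.7% of the sum.

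**Figure D2:**
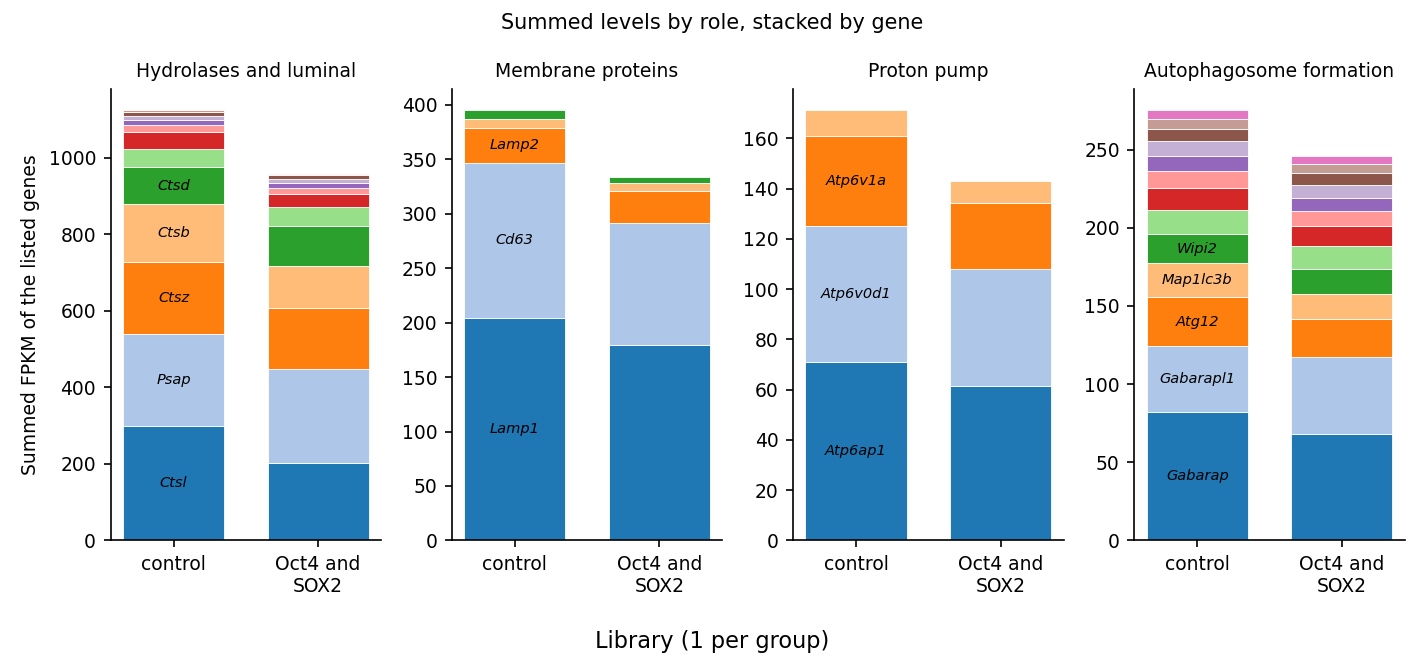
Summed FPKM of the hydrolase, membrane, pump and autophagosome genes in the control and the Oct4 and SOX2 library (1 library each), stacked by gene with the most abundant named in the control bar. The Oct4 and SOX2 bar is the shorter of each pair, and in the hydrolase panel the Ctsl block shrinks most, from 298 to 201 FPKM.

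All 5 membrane protein genes had a ratio below 0, with a median of -0.18. Npc1, encoding the membrane protein that takes cholesterol from NPC2 out of the lysosome, was lowest, at 7.76 and 5.17 FPKM, 1.502-fold lower (1.41 to 1.60). The gene of its luminal partner, Npc2, was slightly higher. Cd63, a tetraspanin gene of late endosomes and exosomes, stood at 143 and 111 FPKM, 1.28-fold lower (1.2504 to 1.3091). Npc1 and Cd63 were the membrane genes past the 25% limit. Lamp1 stood at 204 and 180 FPKM, 1.14-fold lower (1.11 to 1.16). Lamp2, whose splice forms include the receptor of chaperone-mediated autophagy, stood at 32.1 and 29.8 FPKM, 1.08-fold lower (1.05 to 1.11). Mcoln1, the lysosomal calcium channel gene, stood at 8.12 and 7.32 FPKM, 1.11-fold lower (1.04 to 1.18). Lamp1 was 6.37 times the FPKM of Lamp2 in the control and 6.04 times with Oct4 and SOX2.

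Some of these reads have a second possible source. Cd63 has a processed pseudogene, Cd63-ps, that matches its transcript at 98.5% over 812 bases and held 1228 and 964 reads. The sum of the gene and its copy had a log2 ratio of plain values of -0.35, against -0.36 for Cd63 alone. Exons of Npc1 share 511 bases with Rmc1 on the opposite strand, which had 1458 and 1214 reads, and exons of Ctsb share 774 bases with Fdft1, with 1563 and 1633. Whether reads kept their strand is not given in the sources used here, so reads in the shared stretches cannot be told apart.

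All 4 proton pump genes were lower, in a narrow range for 3 of them. Atp6v1a, encoding the catalytic A subunit that splits ATP, stood at 36.0 and 26.3 FPKM, 1.37-fold lower (1.32 to 1.42), and was the pump member past the 25% limit. Atp6v1h, a regulatory subunit gene of the same cytosolic sector of the pump, stood at 10.1 and 8.56 FPKM, 1.18-fold lower (1.12 to 1.24). Atp6v0d1, encoding the subunit that joins the membrane ring to the central stalk, stood at 54.2 and 46.6 FPKM, 1.16-fold lower (1.10 to 1.23). Atp6ap1, encoding an accessory protein of pump assembly, stood at 70.9 and 61.5 FPKM, 1.15-fold lower (1.11 to 1.19). The group's median log2 ratio was -0.21 and its summed level 171 and 143 FPKM.

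The remaining V-ATPase genes were less uniform. Of 15 measured among 21 others, 10 had a ratio below 0, 6 passed the 25% limit downward and 3 upward, with a median of -0.26. The lowest were Atp6v1c1 and Atp6v1b2, which like Atp6v1a encode subunits of the cytosolic sector. Atp6v1c1 stood at 30.8 and 21.8 FPKM, 1.42-fold lower (1.36 to 1.48), and Atp6v1b2 at 34.6 and 24.7 FPKM, 1.40-fold lower (1.35 to 1.46). The highest at 5 FPKM or more were Atp6v0a1, encoding an isoform of the a subunit, at 10.2 and 15.5 FPKM, 1.52-fold higher (1.44 to 1.60), and Atp6v0e2, another membrane-sector gene, at 6.09 and 8.53 FPKM, 1.40-fold higher (1.24 to 1.58). Membrane-sector genes went both ways: unlike Atp6v0a1 and Atp6v0e2, Atp6v0b, of the membrane ring, was lower, at 43.2 and 34.2 FPKM. The only measured cytosolic-sector gene with a ratio above 0 was the low-level Atp6v1g2, at 0.899 and 1.41 FPKM from 72 and 113 reads. The proteolipid gene Atp6v0c was listed at 2.64 and 2.34 FPKM while its processed pseudogene Atp6v0c-ps2 was at 113 and 140 FPKM, so its own level is uncertain. These last 4 genes were chosen after their values were seen.

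**Figure D3:**
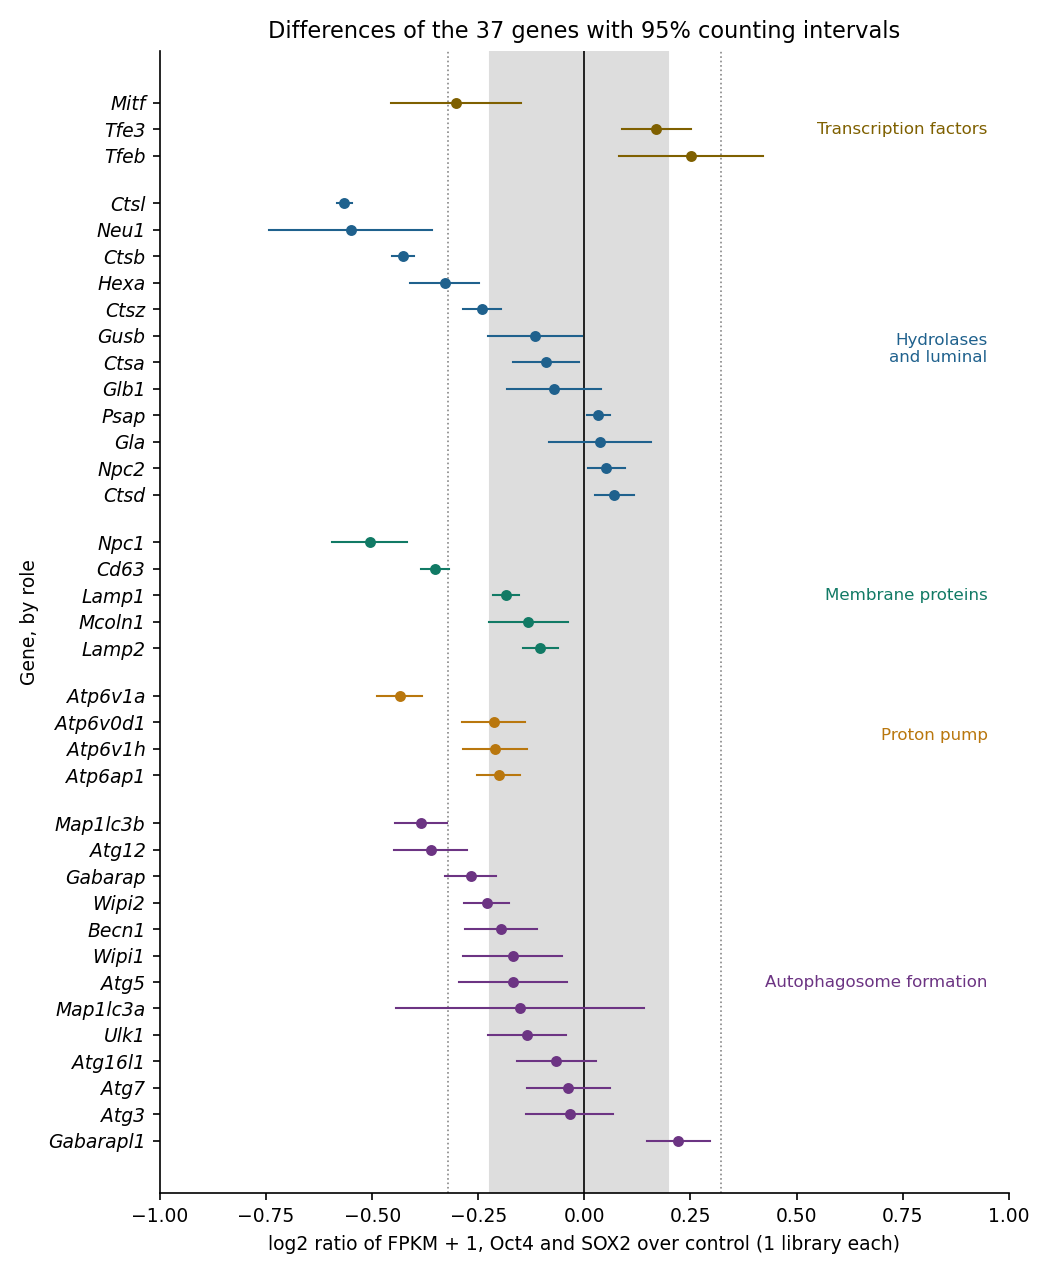
Log2 ratio, library with the factors over control, of FPKM + 1 for each of the 37 genes by role. Bars are the 95% counting interval of the plain ratio, shifted to each point at unchanged width, and not an interval of the plotted ratio. The grey band spans the middle 50% of all measured genes (-0.22 to 0.20) and dotted lines mark the 25% limit. All 5 membrane and all 4 pump genes lie left of 0, and Tfeb, Tfe3 and Gabarapl1 are the points furthest to the right.

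Autophagosome formation genes among the members had ratios below 0 with 1 exception. For Atg16l1, Atg3, Atg7 and Map1lc3a, however, the counting interval held equal levels. Of the 13 genes 12 had a ratio below 0, with a median of -0.17, and their summed level was 275 and 246 FPKM. Among these 13, the genes of initiation and membrane nucleation were all slightly lower. Ulk1, the initiating kinase gene, stood at 9.74 and 8.79 FPKM, 1.11-fold lower (1.04 to 1.18). Becn1, encoding the beclin 1 subunit of the lipid kinase complex, stood at 10.8 and 9.30 FPKM, 1.16-fold lower (1.09 to 1.23). The products of Wipi1 and Wipi2 bind the lipid that this kinase makes. Wipi1 stood at 9.14 and 8.02 FPKM, 1.14-fold lower (1.05 to 1.24), and Wipi2 at 18.5 and 15.7 FPKM, 1.18-fold lower (1.14 to 1.23). Genes of these steps outside the 13 went both ways. Rb1cc1 stood at 7.06 and 7.77 FPKM, 1.10-fold higher (1.05 to 1.15), and Atg13 at 16.1 and 11.7 FPKM, 1.37-fold lower (1.28 to 1.46). Both were chosen after their values were seen.

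The conjugation machinery, which couples ATG12 to ATG5 and attaches LC3 proteins to lipid, was uneven. Atg12 stood at 31.7 and 24.5 FPKM, 1.30-fold lower (1.22 to 1.38). Atg5, its conjugation partner gene, stood at 14.3 and 12.6 FPKM, 1.13-fold lower (1.04 to 1.24). The other 3 did not differ beyond counting error: Atg16l1, the scaffold gene of that conjugate, at 6.32 and 5.99 FPKM, Atg7, the activating enzyme gene, at 7.77 and 7.54 FPKM, and Atg3, the LC3-conjugating enzyme gene, at 15.5 and 15.1 FPKM.

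The LC3 and GABARAP genes, whose products coat the autophagosome, differed in direction. Map1lc3b, encoding the LC3B protein used as an autophagosome marker, stood at 21.4 and 16.2 FPKM, 1.33-fold lower (1.27 to 1.38). Gabarap stood at 82.4 and 68.3 FPKM, 1.21-fold lower (1.16 to 1.26), and was the most abundant of the 4 in each library. Map1lc3a, at 5.60 and 4.94 FPKM from 211 and 186 reads, did not differ beyond counting error. Gabarapl1 (ENSMUSG00000030161, chromosome 6 from 129533160 to 129542346) was the exception, at 41.8 and 48.9 FPKM, 1.17-fold higher (1.11 to 1.23). Its FPKM was 0.507 times that of Gabarap in the control and 0.716 times with Oct4 and SOX2. Gabarapl2, a relative outside the 37 that was chosen after its value was seen, stood at 18.8 and 16.1 FPKM.

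Copies of Map1lc3b bear on its value only slightly. Of 4 processed pseudogenes that match its transcript at 95% or more over at least 300 bases, Gm6055 held 244 and 225 reads and the other 3 together 0 and 2. With these added to the 5137 and 3870 reads of Map1lc3b, the log2 ratio of plain values was -0.39, against -0.41 for the gene alone.

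Members with a promoter match were spread over the range of differences. The 7 members with TCACGTGA were Ctsa, Ctsd, Gla, Mcoln1, Atp6v0d1, Atp6v1a and Atg3. Their log2 ratios ran from -0.44 for Atp6v1a, with the match 132 bases before the start, to 0.07 for Ctsd, with the match 99 bases before it, and their median was -0.09. The 23 members with a promoter and no TCACGTGA had a median of -0.17. Of the 9 members past the 25% limit, Atp6v1a was the only one seen with this palindrome, and Ctsb, Npc1 and Atg12 had no promoter in the table.

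**Figure D4:**
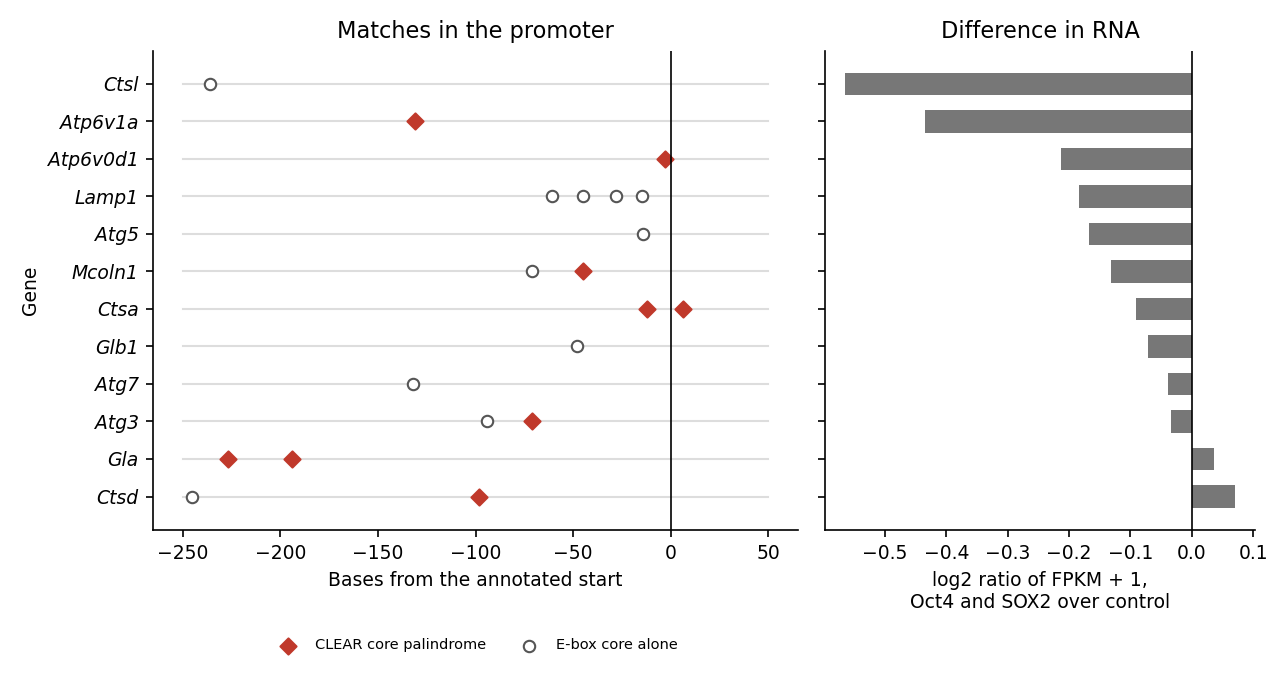
Left, positions in bases from the annotated start of the CLEAR core palindrome (diamonds) and of E-box cores without it (circles) in the promoters of the 12 genes with a match; right, the log2 ratio of FPKM + 1 of the same genes (bars, 1 library per group). Genes with a diamond stand throughout the order, from Atp6v1a at -0.44 to Ctsd at 0.07.

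Outside the 37, the other genes of the pathway were read from 7 lists of 221 genes, of which 192 were measured. Of these 128, or 66.7%, had a ratio below 0, with a median of -0.11. At the 25% limit 43, or 22.4%, were lower and 15, or 7.81%, were higher, beside 16.9% and 16.1% of measured genes. At 2-fold 3 were lower and 1 was higher, beside 1.85% and 2.42%. With 5 FPKM added in place of 1, the 25% counts became 24 and 6, beside 8.53% and 7.88% of measured genes. With plain read totals or rescaling without the 50 highest genes, 30 and 29 of the 192 were lower, beside 15.02% and 14.97% of measured genes. Under the same scalings 18 and 18 were higher, beside 17.73% and 17.85%. As shares of the 192, the lower counts then lay close to the shares of all measured genes, and the higher counts below them. Medians were below 0 in each of the 7 lists, from -0.04 for the other genes of autophagosome formation and fusion to -0.26 for the other pump subunits. They stayed below 0 under the alternatives run but varied in size, from -0.090 to -0.020 for autophagosome formation and fusion, -0.080 to -0.024 for nutrient sensing, -0.27 to -0.060 for the pump, -0.27 to -0.11 for the other membrane genes, -0.094 to -0.056 for the other luminal genes and -0.15 to -0.088 for cargo receptors. The median of the 192 varied from -0.12 to -0.062.

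Cargo receptors, which tie the load to the autophagosome, spread most widely. Of 20 measured, 14 had a ratio below 0 and the median was -0.14. Stbd1, encoding a glycogen-binding receptor, stood at 17.2 and 5.62 FPKM, 3.05-fold lower (2.72 to 3.42). Sqstm1, the p62 gene, which is also a target of the oxidative stress factor NRF2, stood at 350 and 161 FPKM, 2.17-fold lower (2.13 to 2.21). The mitophagy receptor genes Bnip3 and Bnip3l, known to respond to hypoxia, were the highest of the list. Bnip3 stood at 22.1 and 47.3 FPKM, 2.13-fold higher (2.01 to 2.27), and Bnip3l at 25.1 and 32.9 FPKM, 1.31-fold higher (1.252 to 1.376).

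Genes of sorting and fusion had a median of -0.13 over 18 measured, 14 of them below 0. Igf2r and M6pr, which encode the 2 receptors that carry mannose 6-phosphate-tagged hydrolases to the lysosome, went in opposite directions. Igf2r stood at 9.29 and 3.97 FPKM, 2.34-fold lower (2.18 to 2.51), and M6pr at 33.0 and 38.5 FPKM, 1.17-fold higher (1.12 to 1.22). Nagpa, encoding the enzyme that uncovers the tag, stood at 4.02 and 5.73 FPKM, 1.43-fold higher (1.23 to 1.66), and Arl8a, a lysosome-positioning GTPase gene, at 57.3 and 46.7 FPKM, 1.23-fold lower (1.17 to 1.28).

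Nutrient-sensing genes of the lysosomal surface had a median of -0.07 over 34 measured, with 8 past the 25% limit downward and 0 upward. Flcn, encoding folliculin, which in mTORC1 signalling governs TFEB and TFE3, stood at 18.4 and 10.2 FPKM, 1.81-fold lower (1.70 to 1.94). Fnip1, its partner gene, stood at 18.6 and 12.1 FPKM, 1.54-fold lower (1.46 to 1.61). The highest were Mlst8, an mTOR complex subunit gene, at 3.85 and 5.01 FPKM, and Lamtor4, of the complex that anchors mTORC1, at 12.7 and 15.8 FPKM.

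Single genes differed widely in the remaining lists. Among 40 other luminal genes, 25 were below 0 and the median was -0.09. Scpep1, a serine carboxypeptidase gene, stood at 154 and 80.4 FPKM, 1.92-fold lower (1.86 to 1.98), and Creg1, encoding a secreted and lysosomal glycoprotein, at 39.3 and 26.4 FPKM, 1.49-fold lower (1.41 to 1.58). The mucopolysaccharide-degrading Ids was 1.36-fold higher (1.28 to 1.45), from 11.6 to 15.8 FPKM, as was the alpha-mannosidase gene Man2b1 (1.27 to 1.44), from 6.68 to 9.06 FPKM. Among 31 other membrane genes 25 were below 0, with a median of -0.19. Ctns, the cystine exporter gene, stood at 6.21 and 3.92 FPKM, 1.59-fold lower (1.40 to 1.80), and Clcn7, a chloride exchanger gene, at 19.4 and 14.0 FPKM. The transporter gene Abca2 was at 15.5 and 22.0 FPKM and Tmem9 at 11.8 and 15.5 FPKM. Among 34 other genes of autophagosome formation and fusion 20 were below 0. Epg5, a tether gene for fusion with the lysosome, stood at 12.3 and 6.02 FPKM, 2.05-fold lower (1.94 to 2.17), and Atg9b at 20.6 and 14.2 FPKM, 1.45-fold lower (1.37 to 1.54), while its paralog Atg9a stood at 7.16 and 8.51 FPKM and Tmem41b, a lipid scramblase gene, at 5.98 and 7.14 FPKM.

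**Figure D5:**
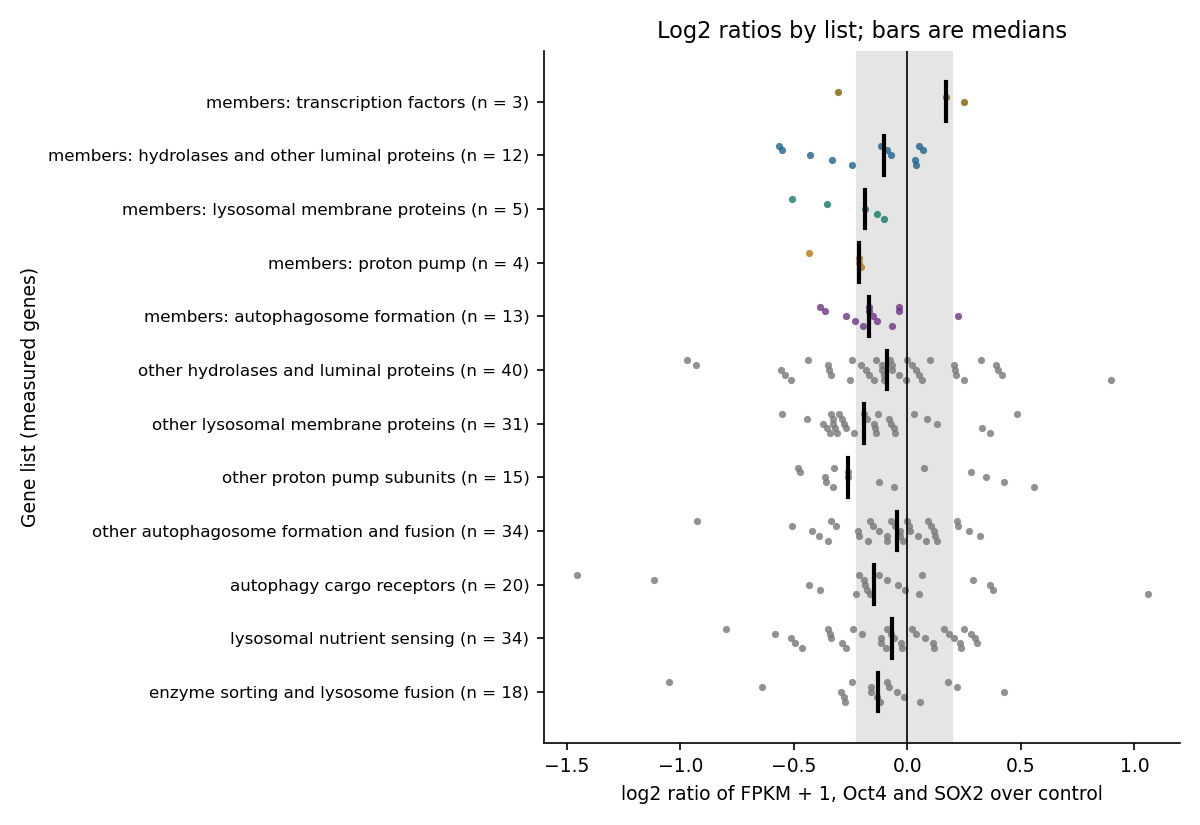
Log2 ratios, library with the factors over control, of FPKM + 1 for the measured genes in each list (points), with black bars for medians; the grey band spans the middle 50% of all measured genes. Medians lie left of 0 for every list shown except the transcription factors, and cargo receptors spread most, from -1.45 for Stbd1 to 1.06 for Bnip3.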

How the data were processed

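RNA sequencing was done on 1 library per group, so no replicate spread and no test exist. The authors deposited FPKM values with gene lengths and positions. CASAVA, HISAT2, featureCounts 1.5.0-p3 and build GRCm38 are named per the submitters' processing notes. For the annotation, strand setting and multiply matching reads, the sources used here give nothing.

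Multiplied by gene length, 100% of FPKM values were whole multiples of a library's smallest step (tolerance 0.001 of a read), and these multiples were taken as reads. Differences are log2 ratios with a pseudocount of 1 FPKM, over genes with at least 1 FPKM in 1 library. Intervals are exact conditional binomial (Clopper-Pearson), 95%, of the plain fold. On the log2 scale they were shifted, at unchanged width, from the plain ratio to the ratio of FPKM + 1. A call is a 2-fold difference, or a higher level at least 25% above the lower, on that scale. The steps were tested on simulated data.

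Exons and transcripts came from GENCODE M21 (98.1% of all table genes and 35 of the 37 had the same coordinates), near copies from blastn 2.17.0, and promoters from RefSeq, GRCm38.p6. Named from each other list are the 2 highest and 2 lowest genes with at least 5 FPKM, and the 2 most expressed of marker lists. Other named markers were chosen after their values were seen. Members and lists were chosen with earlier results of these data known. Alternatives were other pseudocounts, filters and scalings. Tools were pandas 2.3.3, scipy 1.17.1, numpy 2.4.6 and matplotlib 3.10.9 under Python 3.11.15.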

Additional observations from a re-analysis of the deposited data

How the results depend on the processing

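No paired analysis was possible because each group holds 1 library. No member changed direction under the scalings run (median centring, plain read totals and rescaling without the 50 highest genes). Median centring shifts every log2 ratio upward by the same 0.01. The others shift them upward by at most 0.03, and by less for genes at low levels. These shifts are less than the distance of any member below 0 from 0. A pseudocount cannot change a direction. The number of members past the 25% limit downward was 9, then 7 to 10 under the other settings and 5 with a pseudocount of 5. The share of all measured genes past this limit also varied with the setting. The 10 members, with a pseudocount of 0.1, stood beside 20.4% of measured genes. The 7, without the 50 highest genes, stood beside 14.97%. With no filter there were 9, beside 5.19% of all genes. With a pseudocount of 5 the other pathway genes had 24 lower and 6 higher at that limit in place of 43 and 15, and 0 higher at 2-fold. With a pseudocount of 0.1 they had 5 lower and 2 higher at 2-fold, beside 3.70% and 4.19% of measured genes. These stand in place of 3 and 1, beside 1.85% and 2.42%. The median of the membrane proteins was -0.15 without the 50 highest genes in place of -0.18, and that of the other pump subunits -0.060 with no filter, which adds genes near 0, in place of -0.26. Leaving out the most abundant gene of a group gave log2 ratios of summed FPKM of -0.047 in place of 0.08 for the transcription factors, -0.13 in place of -0.23 for the luminal genes, -0.31 in place of -0.24 for the membrane, -0.30 in place of -0.26 for the pump and -0.12 in place of -0.16 for autophagosome formation. With a pseudocount of 5 the shares of all measured genes past the 25% limit were 8.53% lower and 7.88% higher, in place of 16.9% and 16.1%. For 6 members the counting interval held equal levels at the deposited scaling. For Ctsa and Gusb the plain fold intervals began at 1.0125 and 1.0119, close to equal levels. Shifted onto the log2 ratios of FPKM + 1, their upper limits lay at -0.013 and -0.004. These are closer to 0 than the largest shift of 0.03.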

Other observations

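Over the whole table, 200 measured genes had TCACGTGA in a promoter. Of these 125, or 62.5%, had a log2 ratio below 0 and their median was -0.09, where 51.6% of the 8497 measured genes with a promoter lay below 0 and the median was -0.01. Without the lysosome and autophagy genes 193 remained, with 62.2% below 0 and a median of -0.08. The 1030 measured genes with CACGTG, which include them, had 58.4% below 0 and a median of -0.06.

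Fnip2, the paralog of Fnip1 and like it a partner gene of Flcn, was chosen after its value was seen. It stood at 8.59 and 5.73 FPKM in the control library and the library with the factors, 1.498-fold lower (1.40 to 1.60). The glycosidase gene Manba, at 1.02 and 2.76 FPKM, was 2.71-fold higher (2.32 to 3.16), and Naaa, encoding a lysosomal amidase, at 3.86 and 1.48 FPKM, was 2.60-fold lower (2.18 to 3.12). Both were also chosen after their values were seen and fell short of 2-fold on the FPKM + 1 scale.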
